A study of Homo sapiens with 3 samples.

Results

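The 4 HOX clusters were examined in peak lists from chromatin immunoprecipitation followed by sequencing (ChIP-seq) of PANC-1 cells, a long-cultured line from a human pancreatic duct cancer. The study comprised 3 libraries from wildtype cells with no treatment named: an antibody against PHF13, an antibody against EZH2, and input chromatin, with 1 library each and no replicates. The PHF13 antibody was a newly made rabbit polyclonal, and the cells came from single plates of 1 line. Of the 20162 protein-coding genes of the annotation, 38 HOX genes were followed, 10 in HOXA, 10 in HOXB, 9 in HOXC and 9 in HOXD. A gene was assigned every peak that lay within 5 kb of any of its transcription start sites (TSSs) or inside its body. The PHF13 list held 19039 peaks and the EZH2 list 21639. PHF13 peaks at HOX genes numbered 8, and EZH2 peaks numbered 16. Whether the cells carry the markers of their labelled tissue could not be examined in peak lists.

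HOX genes encode homeodomain transcription factors that give cells their position along the body axis. They stand in the same order in every cluster, with low paralogue numbers at the end that is switched on early and near the head, and high numbers at the late, posterior end. In cells that do not use them, HOX clusters are textbook targets of Polycomb repressive complex 2, in which EZH2 is the enzyme that methylates histone H3 at lysine 27. PHF13 is a PHD-finger protein that binds histone H3 methylated at lysine 4, the mark of active and poised promoters.

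Sequences from the GRCh37 assembly show the kinds of sites at issue, each on the plus strand in lower case with CpG dinucleotides in capitals. Windows that touched an untranslated region were not printed, so the strongest EZH2 peaks of HOXA and HOXD are given below by position alone. The first 3 are the 200 bases at EZH2 summits: inside the coding exon of HOXA11 (chr7:27224196-27224395), upstream of HOXA2 (chr7:27143123-27143322), and upstream of HOXD12 (chr2:176963415-176963614).
HOXA11 EZH2: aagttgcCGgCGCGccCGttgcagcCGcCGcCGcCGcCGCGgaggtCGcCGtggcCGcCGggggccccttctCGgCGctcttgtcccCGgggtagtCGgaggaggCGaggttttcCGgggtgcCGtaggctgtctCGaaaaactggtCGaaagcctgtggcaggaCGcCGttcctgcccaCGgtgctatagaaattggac
HOXA2 EZH2: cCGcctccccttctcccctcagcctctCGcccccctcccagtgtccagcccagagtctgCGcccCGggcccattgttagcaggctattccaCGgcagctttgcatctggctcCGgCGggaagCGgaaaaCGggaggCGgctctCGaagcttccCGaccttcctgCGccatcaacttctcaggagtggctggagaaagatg
HOXD12 EZH2: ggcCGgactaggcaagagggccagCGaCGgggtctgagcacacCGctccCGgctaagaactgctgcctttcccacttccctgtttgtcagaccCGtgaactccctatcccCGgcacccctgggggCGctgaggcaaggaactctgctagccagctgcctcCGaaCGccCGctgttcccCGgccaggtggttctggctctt
The next 3 are whole PHF13 peaks: 1 across the coding sequence of HOXB6 (chr17:46675256-46675419), the only peak in HOXA (chr7:27170804-27170956), and the only peak in HOXD (chr2:176999097-176999254).
HOXB6 PHF13: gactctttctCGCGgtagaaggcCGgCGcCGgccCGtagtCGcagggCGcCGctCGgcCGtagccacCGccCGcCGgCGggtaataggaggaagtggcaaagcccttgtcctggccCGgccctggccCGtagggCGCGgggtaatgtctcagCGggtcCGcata
HOXA4 PHF13: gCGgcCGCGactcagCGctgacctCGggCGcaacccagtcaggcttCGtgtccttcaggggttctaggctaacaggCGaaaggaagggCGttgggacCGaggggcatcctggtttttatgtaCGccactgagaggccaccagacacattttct
HOXD3 PHF13: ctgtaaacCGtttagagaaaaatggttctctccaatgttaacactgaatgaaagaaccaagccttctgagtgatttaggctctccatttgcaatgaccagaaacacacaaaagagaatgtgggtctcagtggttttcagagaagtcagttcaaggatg
The 200 bases at the HOXA11 summit held 26 CpGs, those at HOXA2 13 and those at HOXD12 12. The PHF13 peak in HOXB6 held 21 CpGs in 164 bases and that upstream of HOXA4 held 11 in 153, whereas the HOXD3 peak held 1 in 158.

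EZH2 and PHF13 were found mostly in different clusters. EZH2 peaks were assigned to 8 of 10 genes in HOXA and 5 of 9 in HOXD, and to 0 of 10 in HOXB and 0 of 9 in HOXC. PHF13 peaks were assigned to 7 of 10 genes in HOXB, to 2 in HOXA and 2 in HOXD, and to none of the 9 in HOXC. Over all 38 genes, 13 had an EZH2 peak (34.2%, 95% Wilson interval 21.2 to 50.1), beside 30.0% of all protein-coding genes. PHF13 peaks were assigned to 11 (28.9%, interval 17.0 to 44.8), beside 31.2% of protein-coding genes. Both were found at 3 genes, HOXA3, HOXD3 and HOXD8 (7.89%), beside 12.6%, and neither at 17. The shares over all HOX genes therefore lay near those of any protein-coding gene, and what set the clusters apart was the distribution among them. These intervals cover counting error only, and since 4 of the 16 EZH2 peaks and 5 of the 8 PHF13 peaks were assigned to 2 or 3 genes at once, the genes were not independent. With 1 library per antibody, no difference between clusters could be set against a spread between replicates.

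**Figure D1:**
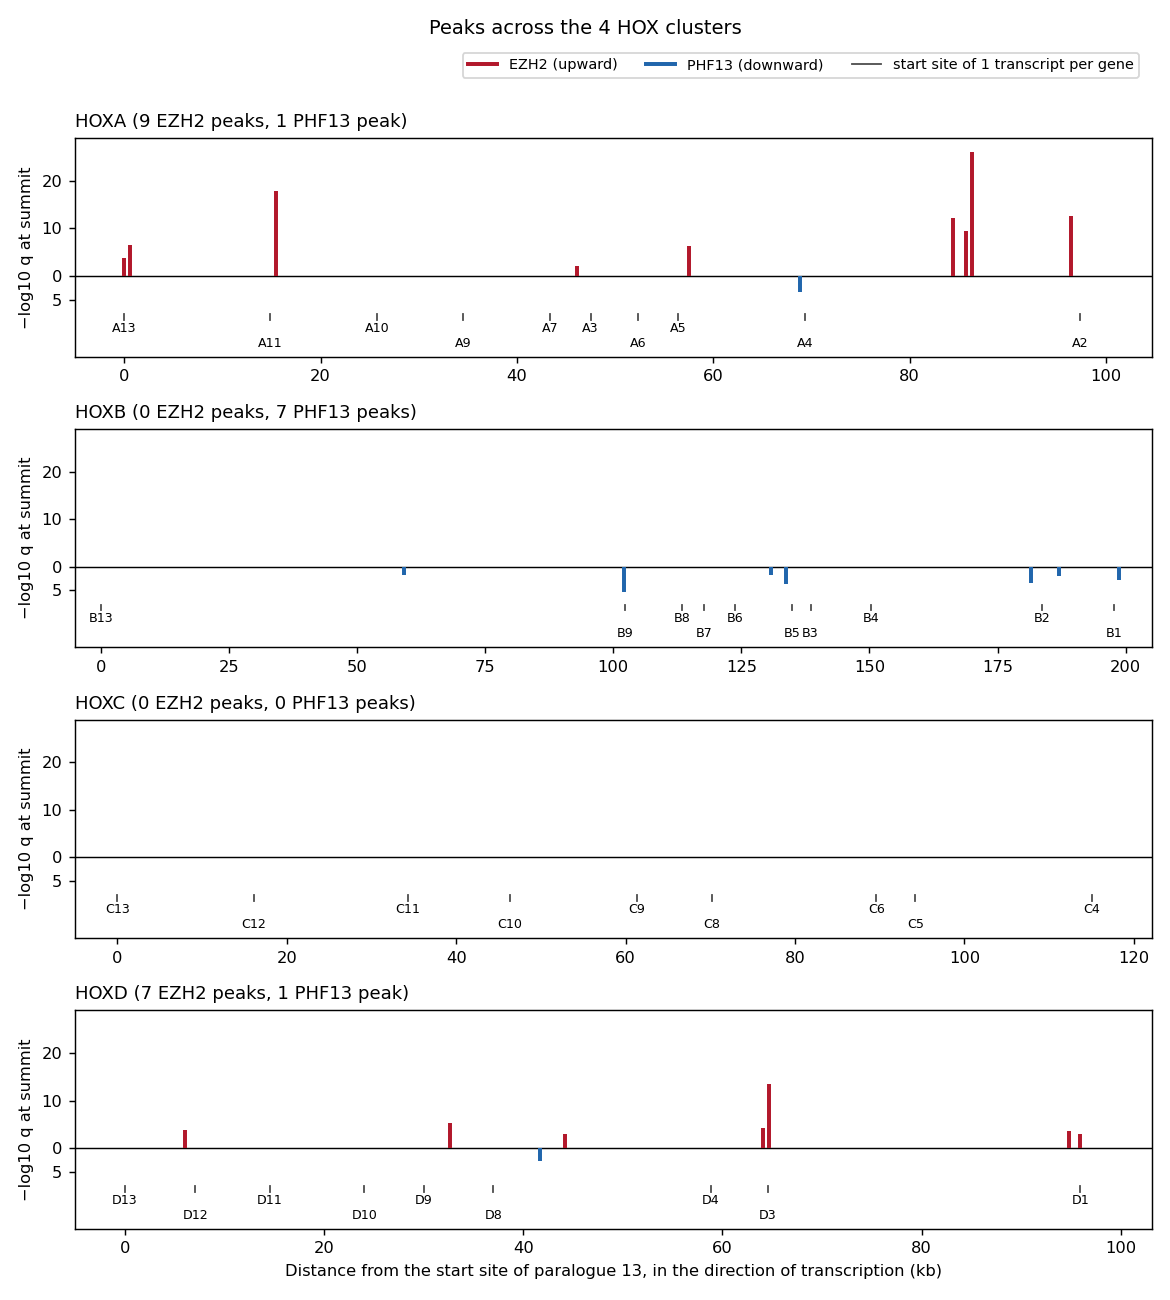
Each panel shows a HOX cluster, with the distance from the start site of paralogue 13 in the direction of transcription in kb on the horizontal axis and the −log10 q of each peak at its summit on the vertical axis, EZH2 upward in red and PHF13 downward in blue. Ticks mark the start site of 1 transcript per gene; EZH2 peaks occupy HOXA (9) and HOXD (7), PHF13 peaks mostly HOXB (7), and HOXC is empty.

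In HOXA, the EZH2 peaks fell into 3 groups along the cluster, at the posterior end, in the middle and at the anterior end. At the posterior end, 2 peaks lay on HOXA13, which patterns the distal limb and the genital tract. The first (chr7:27239039-27239403) had 42 fragments at its summit (exact 95% Poisson interval 30.3 to 56.8) over a local background of 13.7 and a −log10 q of 6.45, and the second, at the start site itself, had 37 over 14.5 and a −log10 q of 3.70. HOXA11, a regulator of forelimb and uterine development, carried the peak with the highest fold enrichment in HOXA. This peak (chr7:27223574-27224906) was 1333 bp wide, covered the start site and had its summit in the coding exon, with 81 fragments (64.3 to 101) over 22.2, a −log10 q of 17.9 and a fold enrichment of 3.53. The same peak lay within 5 kb of an alternative start of HOXA10, a uterine and blood regulator, whose main start was 9635 bp away.

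In the middle of HOXA there were 2 EZH2 peaks. A peak of 654 bp (chr7:27182008-27182661) covered a start site of HOXA5, a lung patterning factor, with 38 fragments over 11.7 and a −log10 q of 6.33. It was assigned to HOXA6 as well, and lay inside the long transcript of HOXA3. At HOXA7, a peak of 156 bp (chr7:27193435-27193590) in the untranslated region had 24 fragments over 9.29 and a −log10 q of 2.13, the lowest of the 16. HOXA9, a factor of blood stem cells and leukemia, had no peak of either kind, and the nearest EZH2 peak was 11566 bp from its main start. HOXA4 had no EZH2 peak, with the nearest at 11632 bp. The longest runs of HOXA without an EZH2 peak were 29.98 kb, with the starts of HOXA7, HOXA9 and HOXA10, and 25.85 kb, with the start of HOXA4.

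At the anterior end, HOXA3, needed for the thymus and parathyroid, carried 3 EZH2 peaks side by side. The strongest EZH2 peak at any HOX gene was 755 bp wide (chr7:27152718-27153472), over an internal HOXA3 start, with 151 fragments (128 to 177) over 50.2 and a −log10 q of 26.1, higher than that of 95.5% of EZH2 peaks. Beside it, a peak of 1413 bp (chr7:27154747-27156159) had 121 fragments over 52.2, and a peak of 495 bp between them had 111 over 50.9. The fold enrichment of these 3 was 2.97, 2.29 and 2.16, and their local background was above 50, whereas that of the other HOX EZH2 peaks ranged from 7.73 to 22.2. The part of this high background in the peaks was not tested. HOXA2, which patterns the hindbrain and the second pharyngeal arch, had the widest EZH2 peak of all the HOX genes. It spanned 1556 bp, 295 bp upstream of the start site and outside any annotated gene (chr7:27142600-27144155), with 62 fragments (47.5 to 79.5) over 17.6, a −log10 q of 12.7 and a fold enrichment of 3.38.

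In HOXD, EZH2 peaks were narrower and fewer passed a strict limit. HOXD3 had 3 of the 7. The strongest (chr2:177021729-177022708) covered the main start site over 980 bp, with 61 fragments (46.7 to 78.4) over 16.4, a −log10 q of 13.5 and a fold enrichment of 3.56. A second peak 215 bp wide lay just upstream, with 41 fragments over 16.2, and another 282 bp wide lay at an alternative start of HOXD3, with 26 over 9.29. Upstream of HOXD12, a posterior limb gene, a peak of 533 bp (chr2:176963315-176963847) lay 676 bp from the start, with 34 fragments (23.5 to 47.5) over 12.5. A peak of 208 bp downstream of HOXD9 (chr2:176989981-176990188) was assigned to HOXD8 and HOXD9, with 28 fragments over 7.73 and a −log10 q of 5.24. HOXD1, the most anterior gene of the cluster, had peaks of 326 bp and 343 bp, with 33 and 31 fragments over 12.2 and 12.1. No peak of either kind was assigned to 4 HOXD genes, HOXD4, HOXD10, HOXD11 and HOXD13. Their nearest starts were 5105, 8475, 5097 and 5866 bp from an EZH2 peak, so that all 9 HOXD genes had 1 when the limit was 10 kb. Just inside the 5 kb limit were HOXD8 at 4234 bp and HOXA10 at 3694 bp.

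**Figure D2:**
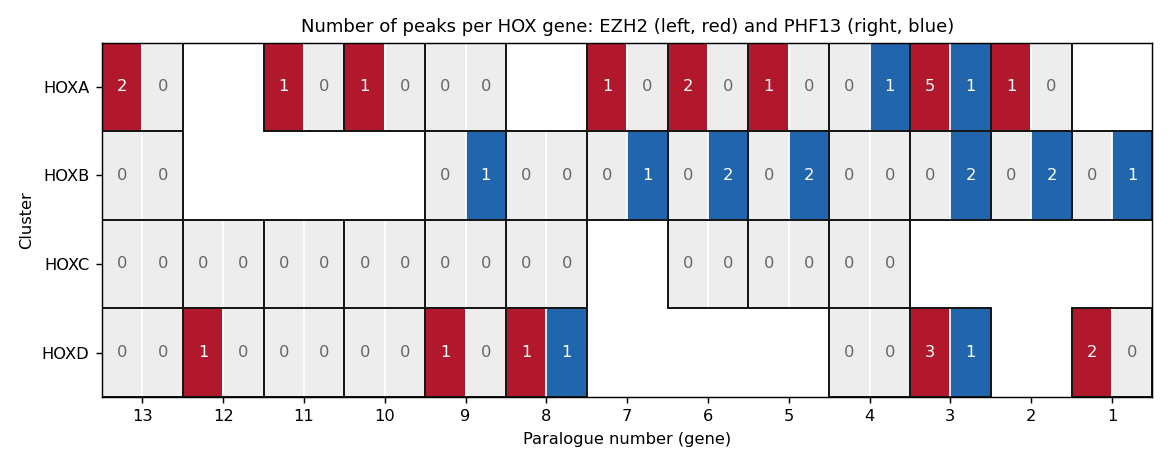
Columns give the paralogue number from 13 to 1 and rows the cluster; each gene has a cell with the number of EZH2 peaks on the left (red where above 0) and of PHF13 peaks on the right (blue where above 0), and blank spaces are paralogues not among the 38 genes. The HOXA and HOXD rows hold the EZH2 peaks, and the HOXB row holds most PHF13 peaks.

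By position in the cluster, EZH2 peaks were assigned to 4 of the 7 genes of paralogues 1 to 3, to 4 of 15 of paralogues 4 to 8, and to 5 of 16 of paralogues 9 to 13. The shares of the middle and posterior groups (26.7% and 31.25%) lay near the 30.0% of all protein-coding genes. Within HOXA and HOXD, the counts were 4 of 4, 4 of 6 and 5 of 9, so that EZH2 was found at both ends of these clusters. PHF13 peaks were assigned to 5 of 7, 5 of 15 and 1 of 16 genes of the same position groups, beside 31.2% of all protein-coding genes. In HOXB, the counts were 3 of 3, 3 of 5 and 1 of 2. By this rule PHF13 was assigned to more of the anterior than of the posterior genes, although with 8 peaks behind these counts a shift of 1 or 2 peaks would change them. Of the anterior genes, HOXB3 was counted through 2 peaks that lay nearer the starts of HOXB5 and HOXB6. HOXD3 was counted through an alternative start, with its main start 22781 bp from the peak. Position was also mixed with cluster, since HOXC, which had no peak, has no gene of paralogues 1 to 3. HOXA3 and HOXB7 were counted for PHF13 through their long bodies alone, with the peak 8869 bp and 6738 bp from any of their starts.

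In HOXB, the PHF13 peaks were of ordinary to low rank in their list, with 3 of the 6 below a −log10 q of 3. The strongest lay 186 bp upstream of HOXB9, the gene next to the gap before HOXB13, with 29 fragments (19.4 to 41.6) over 7.69, a −log10 q of 5.36 (higher than that of 73.2% of PHF13 peaks) and a fold enrichment of 3.45. It also lay in an intron of a long HOXB7 transcript. HOXB5, a gut and lung patterning gene, had a peak 1193 bp from its start (chr17:46672334-46672502), with 31 fragments (21.1 to 44.0) over 10.5 and a −log10 q of 3.66. A peak in the coding sequence of HOXB6 (chr17:46675256-46675419) had 25 fragments (16.2 to 36.9) over 10.4 and a −log10 q of 1.72, higher than that of 5.50% of PHF13 peaks. Both were assigned to HOXB3, HOXB5 and HOXB6. HOXB2, a hindbrain gene, had a peak in its intron (chr17:46619113-46619320), with 22 fragments over 8.17, and another 2033 bp upstream (chr17:46624504-46624661), with 28 over 9.09. HOXB1, which specifies the facial motor neurons, had a peak in its untranslated region (chr17:46607452-46607622), with 21 fragments over 6.29. HOXB4, HOXB8 and HOXB13 had none, the last being the prostate and distal colon gene that stands apart from the rest of its cluster. A further PHF13 peak in HOXB (chr17:46746906-46747089), with 18 fragments over 6.15, lay in an intron of LINC02086 and was assigned to no HOX gene.

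The other PHF13 peaks were single. In HOXA, a peak of 153 bp lay 405 bp upstream of a start of HOXA4, with 23 fragments (14.6 to 34.5) over 6.61 and a −log10 q of 3.44, and fell inside the long HOXA3 transcript. In HOXD, a peak of 158 bp between HOXD8 and HOXD3 had 19 fragments (11.4 to 29.7) over 5.49 and a −log10 q of 2.66. No PHF13 peak at a HOX gene overlapped an EZH2 peak, and none had an EZH2 peak within 1 kb. Of all PHF13 peaks, 11.7% overlapped an EZH2 peak and 15.1% had one within 1 kb, and of those within 5 kb of a protein-coding TSS 6.67% and 9.42%, so that fewer than 2 of 8 would be found at any of these shares. The closest pair lay in HOXD, 2162 bp apart, and the HOXA4 peak was 11052 bp from the nearest EZH2 peak. The 6 HOXB peaks were at least 158560 bp from one. The 3 genes with both kinds of peak thus had them at separate sites.

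No peak of either list was assigned to HOXC4, HOXC5, HOXC6, HOXC8, HOXC9, HOXC10, HOXC11, HOXC12 or HOXC13. The cluster was examined as a block, from 5 kb before to 5 kb after its outermost genes, and the block of 127.2 kb (chr12:54327615-54454814) was empty. At the mean density of the genome, a block of this length would hold 0.963 EZH2 peaks and 0.847 PHF13 peaks, so that the absence by itself departs little from a typical stretch. The nearest EZH2 peaks lay 10628 bp below and 30103 bp above the block, and the next 127.2 kb above it held 6. The HOXB block of 210.2 kb (chr17:46600888-46811112) held no EZH2 peak where the mean density would give 1.59, and the nearest lay 151996 bp below and 83016 bp above. By contrast, the HOXA block of 109.7 kb (chr7:27134973-27244710) held 9 EZH2 peaks where the mean density would give 0.831, and the HOXD block of 108.2 kb (chr2:176952449-177060635) held 7 where it would give 0.819. Stretches of equal length below and above held 3 and 5 EZH2 peaks at HOXA, and 1 and 3 at HOXD. EZH2 peaks covered 6.29% of HOXA and 2.67% of HOXD, beside 0.275% of the genome. For PHF13, the HOXB block held 7 peaks where the mean density would give 1.40, covering 0.640% beside 0.148% of the genome. Stretches of equal length below and above it held 2 PHF13 peaks each.

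Because HOX promoters are CpG-rich, the clusters were also read by CpG island. Islands were merged 500 bp windows with a GC content of at least 55% and an observed/expected CpG ratio of at least 0.65. EZH2 peaks overlapped 6 of 35 islands in HOXA (17.1%) and 3 of 24 in HOXD (12.5%), beside 11.0% of the 37916 islands of the genome. They overlapped 0 of 38 islands in HOXB and 0 of 26 in HOXC, where the genome's share would give 4.18 and 2.86. PHF13 peaks overlapped 3 of 38 islands in HOXB (7.89%), 1 of 35 in HOXA and none in HOXC or HOXD, beside 6.29% of all islands. Per island, the shares of HOXD for EZH2 and of HOXB for PHF13 were thus close to those of the genome. In HOXA, 6 islands had EZH2 where the genome's share would give 3.85. Island sequence amounted to 45.6 kb in HOXA, 43.7 in HOXB, 33.9 in HOXC and 34.4 in HOXD.

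What could be detected was set by the local background. The fewest fragments of a called peak were taken over backgrounds within 10% of a given value. In the EZH2 list, they were 21 for a background of 10 and 29 for a background of 15. In the PHF13 list, they were 22 and 31. EZH2 peaks within 1 Mb of the clusters, with those inside the clusters included, had a median background of 10.7 at HOXA, 11.4 at HOXB, 9.27 at HOXC and 6.15 at HOXD. The background inside HOXB and HOXC was not measured, since no EZH2 peak was called there. At the peaks inside HOXA and HOXD, medians of 17.6 and 12.2 were higher than those within 1 Mb, which hold the same peaks among others. No EZH2 peak with fewer than 21 fragments was called at a background within 10% of 10, and 21 is the limit at the lower side of that range. The weakest EZH2 peaks at HOX genes, with 24 and 26 fragments over 9.29, stood just above this limit.

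**Figure D3:**
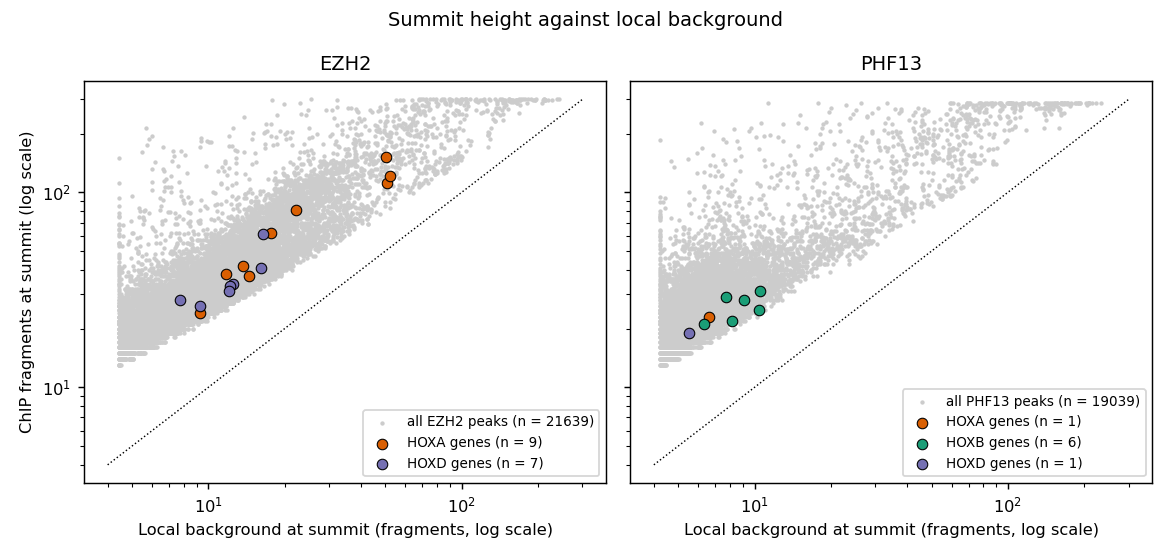
Fragments at the summit (vertical, log scale) are plotted against the local background in fragments (horizontal, log scale) for EZH2 on the left and PHF13 on the right; gray points are all peaks, colored points are the HOX peaks by cluster, and the dotted line marks equality. The HOX peaks lie within the cloud of each list, the 3 HOXA3 peaks at backgrounds above 50, and the flat upper edges are at 300 fragments for EZH2 and 288 for PHF13, the highest in each list.

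EZH2 peaks at HOX genes were wider and lay on a higher background than the list as a whole. Their median width was 430 bp (range 156 to 1556), beside 216 bp for all EZH2 peaks, and 3 of 16 exceeded 1 kb (18.8%, beside 7.67%). All 3 of these were in HOXA, at HOXA2, HOXA3 and HOXA11. The median summit held 39.5 fragments over a background of 14.1, beside 25 over 7.28, so that the median fold enrichment of 2.61 was lower than the 3.13 of the list. The GC content in 500 bp at the summit had a median of 61.5% and the CpG ratio of 0.652, beside 49.6% and 0.271. When EZH2 peaks with a CpG ratio of at least 0.6 were taken for comparison (4487 peaks), the median width was 553 bp, the fold enrichment 3.49 and the −log10 q 8.72, all above the HOX values (430 bp, 2.61 and 5.79). The 119 EZH2 peaks at other developmental homeobox genes had a median width of 404 bp and the same median background of 14.1. Peaks over 1 kb made up 33.6% at those genes and 32.7% of the CpG-rich set, beside the 18.8% at HOX genes.

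PHF13 peaks at HOX genes were narrow, with a median width of 166.5 bp (range 153 to 291) beside 188 bp for all PHF13 peaks, where the narrowest peak in the list was 144 bp. Their median fold enrichment was 2.95, beside 3.41, and their median −log10 q 3.14, beside 3.57. Their GC content was 60.7%, beside 46.0%. The binding sequence of the AP-1 transcription factors, TGACTCA or TGAGTCA (each the reverse complement of the other), was sought in 200 bp at each summit. It was found in 0 of the 8 HOX peaks, beside 11.2% of all PHF13 peaks and 3.27% of those with a CpG ratio of at least 0.6, shares at which fewer than 1 of 8 would hold it. None of the 8 covered a start site, beside 21.6% of the PHF13 peaks within 5 kb of a protein-coding TSS. Of the wider EZH2 peaks, 7 of 16 did, beside 33.1% of the EZH2 peaks within 5 kb of one. The sequence at all 24 summits was single-copy, in that the median 24-mer occurred once in the genome, and at 22 of them every 24-mer did.

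HOX genes were then set beside other groups. Other developmental homeobox genes, a list of 89 that included the LHX and NKX families, had EZH2 peaks at 62 (69.7%) and PHF13 peaks at 8 (8.99%). The 38 HOX genes, at 34.2% and 28.9%, had a lower EZH2 share and a higher PHF13 share than this list. By cluster, the EZH2 share was 80.0% in HOXA, 55.6% in HOXD and 0 in HOXB and HOXC. Ribosomal protein genes, which are active in growing cells, had EZH2 peaks at 4 of 76 (5.26%) and PHF13 peaks at 22 (28.9%). A CpG-rich promoter, with a CpG ratio of at least 0.6 in the 1000 bp at the main start, was found at 32 of the 38 HOX genes. Among these, EZH2 peaks were assigned to 13 and PHF13 peaks to 7, beside 31.1% and 36.3% of the 13120 protein-coding genes with such a promoter. The HOX genes with a lower ratio were HOXB1, HOXB2, HOXB3, HOXB6, HOXB13 and HOXC6. All but HOXC6 were in HOXB.

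**Figure D4:**
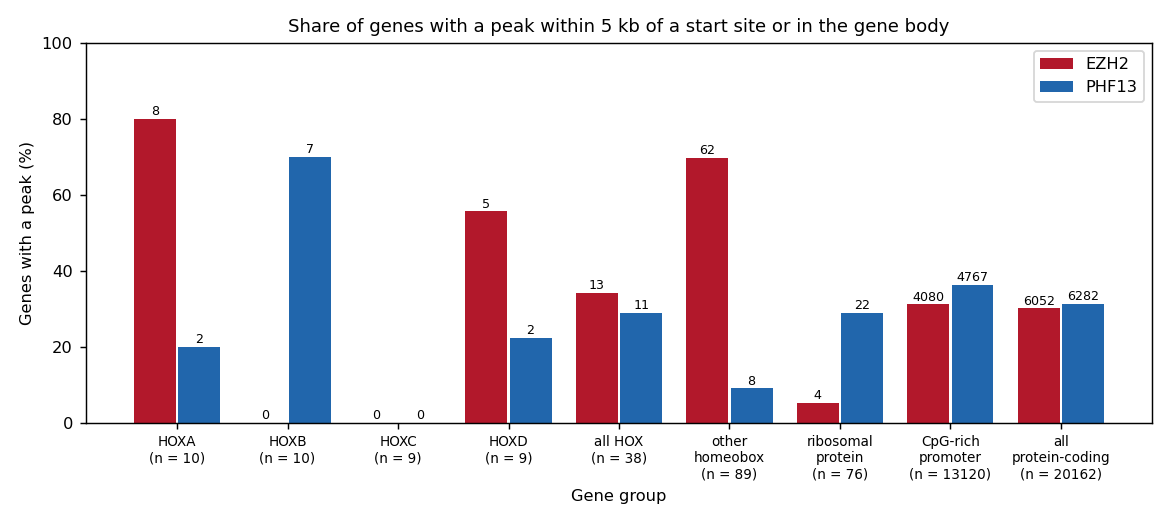
Bars give the percent of genes in each group with an EZH2 peak (red) and with a PHF13 peak (blue), with the number of genes above each bar and the size of each group under its name. EZH2 reaches 80.0% in HOXA and 0 in HOXB and HOXC, and PHF13 reaches 70.0% in HOXB and 0 in HOXC.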

How the data were processed

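PHF13 and EZH2 ChIP-seq peaks of PANC-1 cells were compared at 38 HOX genes. Per the submitters' processing notes and the study's methods, the authors trimmed reads with Trim Galore 0.4.1, aligned them to hg19 with Bowtie2 2.4.1, removed duplicates with Picard and called peaks on each antibody against input with MACS2 2.2.7.1. No filter on mapping quality is stated. The deposited fold enrichment is the ratio of ChIP pileup to local background at the summit, and the deposited p and q are on a −log10 scale. The weakest peak of either list had a −log10 q of 1.30, a looser limit than the methods state for PHF13, and the EZH2 list held narrow peaks although broad ones are described. Lists were used as deposited, and peak numbering was complete in both.

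Each fold enrichment and p was solved for a whole number of summit fragments and a local background, with a relative error of at most 0.0001 in 100% of peaks. This gives the depth behind each peak, with medians of 21 (PHF13) and 25 (EZH2) fragments; read totals are unknown. Intervals on summit fragments are exact Poisson, cover counting error only, and are taken at a maximum. Positions were compared with the GRCh37 sequence and GENCODE release 44 mapped to it, 1-based, with all annotated transcripts; the main start is that of the Ensembl canonical transcript, or otherwise the longest coding one. Scripts were tested on simulated data and used pandas 2.3.3, pysam 0.24.0 and scipy 1.17.1.

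With 1 library per antibody no test was run, and counts are set beside those of all features. Named with values were the strongest peak of each list and the 3 widest EZH2 peaks in each cluster, each gene with a PHF13 peak and each without an EZH2 peak; the remaining EZH2 peaks at HOX genes were named after their values were seen. Members, gene lists and comparisons were chosen with earlier results of these data known. Alternatives covered the q limit, the TSS distance, the transcript set, the block ends, joined peaks and the overlap required. Some sequences and genes examined are not reported here.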

Additional observations from a re-analysis of the deposited data

How the results depend on the processing

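EZH2 peaks were assigned to 9 to 18 HOX genes (13 as reported) over the 6 alternatives for the q limit, the TSS distance and the transcripts. HOXB and HOXC had 0 in each of them, but only the limit of 10 kb could have raised a count of 0. Of 58 alternative values, 47 stayed near the reported one and 11 moved. The 47 include zeros that a stricter setting could not change. The PHF13 counts moved most. A −log10 q of 3 is the limit that the study's methods state for PHF13. At a −log10 q of at least 3, PHF13 peaks at HOX genes fell from 8 to 4, those in the 4 blocks from 9 to 4, and genes with both kinds from 3 to 1. At a −log10 q of at least 5, these were 1, 1 and 0, PHF13 was assigned to 2 genes (HOXB7 and HOXB9, 1 shared peak) where 11 were reported, EZH2 peaks at HOX genes fell from 16 to 9, and EZH2 cover of HOXD fell from 2.67% to 1.10%. A TSS distance of 1 kb left 1 gene with both. A block of HOXC extended by 20 kb had an EZH2 cover of 0.0992% where 0 was reported, since it took in the peak below the block. The overlap of PHF13 peaks at HOX genes with EZH2 peaks was 0, beside 11.7% of all PHF13 peaks. It stayed at 0 when any EZH2 peak within 1 kb was counted, and requiring a larger overlap could not have raised it. No paired analysis was possible because each antibody had 1 library. Weak binding below the detection limit, and differences between libraries, cannot be read from these lists.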

Other observations

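Genes related to the HOX clusters were examined by the same rule. Among the 8 cluster neighbors and ParaHOX genes, the sister family of HOX, 6 had EZH2 peaks and none had a PHF13 peak. CDX2, the intestinal master regulator, had an EZH2 peak of 1872 bp with a −log10 q of 23.3, and the forebrain genes GSX1 and GSX2 had peaks of 1812 bp and 1741 bp with a −log10 q of 13.7 and 17.6. PDX1, required for the pancreas to form, had 3 EZH2 peaks, the widest 943 bp and the strongest with a −log10 q of 10.5. EVX1, beside HOXA, had 3 and EVX2, beside HOXD, had 1. CDX1 and CDX4 had none. Among the HOX cofactors, which bind DNA together with HOX proteins, PBX3, MEIS1, MEIS2 and PKNOX2 had peaks of both lists, MEIS3 had an EZH2 peak alone, PBX4 and PKNOX1 had a PHF13 peak alone, and PBX2 had neither. PKNOX2 had 5 EZH2 peaks, the widest 1860 bp and the strongest with a −log10 q of 39.6.

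For long non-coding genes, only peaks inside the blocks were counted, and the share over all such genes was not computed. EZH2 peaks were assigned to 8 of 10 in HOXA, 2 of 4 in HOXD and 0 of 8 in HOXB and in HOXC. PHF13 peaks were assigned to 3 of 10, 1 of 4, 4 of 8 and 0 of 8 in the same order. FLJ12825, counted in HOXC, runs past the upper end of its block. The nearest EZH2 and PHF13 peaks above the block, at 30103 bp and 36938 bp, lie inside its body and were left out. In HOXA, HOTTIP, a long RNA at the posterior end known for its part in HOXA activation, had 2 EZH2 peaks in its body and HOXA-AS2 had 3, and PHF13 peaks were assigned to HOXA-AS2 and HOXA-AS3. HOXA10-AS had none. In HOXD, HAGLR had 2 EZH2 peaks, and HOXD-AS2 had 2 with 1 PHF13 peak. In HOXB, PHF13 peaks lay in the bodies of HOXB-AS1 (1), HOXB-AS3 (2) and LINC02086 (1). HOTAIR, a long RNA of HOXC known for its reported binding to Polycomb repressive complex 2, had no peak of either kind, as had the HOX microRNA genes MIR196B, MIR196A1, MIR196A2, MIR615 and MIR10B. These genes overlap HOX genes in part and share their peaks.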
